A study of Mus musculus with 60 samples.

Results

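The histone genes of the mouse were followed across 16 peak lists from dorsal root ganglia (DRG), the clusters of sensory neurons and glia beside the spinal cord. Members were the protein-coding genes of the RefSeq table for GRCm38.p6 whose symbol starts with H1f, H2ac, H2bc, H3c or H4c followed by a number, the current names of the Hist1h and Hist2h genes. The rule took 67 of 21887 genes: 10 for the linker histone H1, 17 for H2A, 16 for H2B, 12 for H3 and 12 for H4. Of these, 53 lie in 3 sub-clusters on chromosome 13, here called A (17 members), B (5) and C (31), and 10 lie in a cluster on chromosome 3. The other 4 are linker genes outside any cluster, H1f0 and H1f7 on chromosome 15 and H1f10 and H1f8 on chromosome 6. H1f0 and H1f10 are replacement linker histones made outside S phase, H1f7 is known from spermatids and H1f8 from oocytes, so the name replication-dependent cluster gene does not hold for them, and 63 members are cluster genes. The genes once called Hist3h and Hist4h (H2aw, H2bu2 and H4f16) and H4bc24 in sub-cluster A fall outside the rule.

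Replication-dependent histone genes are short, have no introns and are transcribed mainly in S phase, when new DNA has to be packed into nucleosomes. Their mRNAs end in a stem-loop bound by SLBP instead of a poly(A) tail, and their transcription is coordinated by NPAT in nuclear bodies at the gene clusters. Many H2A and H2B genes stand head to head and share 1 promoter region. Adult sensory neurons no longer divide, while the satellite glia and Schwann cells around them can.

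L4-L6 ganglia of C57BL/6 mice aged 6 to 8 weeks were collected 24 hours after 1 of 4 surgeries. These were sham surgery at the sciatic nerve (Sham), sciatic nerve axotomy (SNA), laminectomy (Lam) and axotomy of the spinal dorsal columns (DCA). H3K9ac and H3K27ac, marks of active promoters and enhancers, and H3K27me3, a mark of Polycomb repression, were measured by ChIP-seq in 2 samples of 10 mice per surgery, and open chromatin by ATAC-seq in 3 samples of 1 mouse. The authors deposited 1 list per assay and surgery with the replicates pooled, so no difference between lists has a replicate error and no test was made. The depth of the samples is unknown, and a cell type that becomes rarer cannot be told apart from a mark lost within cells.

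The lists differed in size: H3K27ac lists held 43803 to 75824 peaks, H3K9ac lists 50332 to 89647, H3K27me3 lists 90011 to 154055 and ATAC lists 153556 to 174605. Of 10 sensory neuron markers, 9 to 10 had an ATAC peak at a gene end in each list, but 1 to 4 had an H3K9ac peak. Of 8 markers of satellite glia and Schwann cells, 5 to 7 had an H3K9ac peak and 5 to 6 an ATAC peak. Of 4 hepatocyte markers, 0 to 2 had an ATAC peak. Such a peak was also at 3 of 4 skeletal muscle markers in each list, 2 to 4 of 4 T cell markers and 3 to 4 of 6 macrophage markers. H3K27me3 was at 4 to 7 of the 10 sensory neuron markers. Among all genes 69.4% to 71.2% had an ATAC peak, 49.1% to 59.3% an H3K9ac peak and 12.3% to 33.4% an H3K27me3 peak.

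Promoter sequences are shown here, with their matches to 3 short motifs, for 1 member of each histone class and for H3c14. For each class it is the member with a promoter entry that had the strongest ATAC Sham peak within 1 kb of a gene end. H3c14 had no ATAC or acetylation peak in any list. The peak need not lie on the printed bases. That of H3c3 lay 797 bp from the gene, with its summit at -1047 bp from the start. That of H2bc6 was shared with H1f4, with its summit at -1421 bp from the H2bc6 start and 13 bp from the H1f4 start. Sequences are RefSeq (GRCm38.p6), 5′ to 3′ on the gene's own strand, and hold the 150 bases before the transcription start. They lie at chr13:23622559-23622708 for H1f4, chr13:23683960-23684109 for H2ac6, chr13:23621095-23621244 for H2bc6, chr13:23745522-23745671 for H3c3 and chr13:23761250-23761399 for H4c1, all on the minus strand, and at chr3:96246535-96246684 on the plus strand for H3c14. H3c1, at −log10 p 19.5 the H3 gene with the strongest such peak, and H2bc4, which equalled H2bc6, have no entry. Capitals mark matches on either strand to 3 motifs: CCAAT (the CCAAT box), TATAAA (the TATA box) and ATTTGCAT (the octamer bound by Oct-1).
H1f4: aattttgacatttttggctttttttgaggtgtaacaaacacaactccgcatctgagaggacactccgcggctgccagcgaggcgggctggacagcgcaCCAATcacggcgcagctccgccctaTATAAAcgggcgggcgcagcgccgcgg
H2ac6: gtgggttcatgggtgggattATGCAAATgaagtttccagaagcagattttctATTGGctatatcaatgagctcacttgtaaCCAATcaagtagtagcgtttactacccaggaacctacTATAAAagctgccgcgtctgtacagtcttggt
H2bc6: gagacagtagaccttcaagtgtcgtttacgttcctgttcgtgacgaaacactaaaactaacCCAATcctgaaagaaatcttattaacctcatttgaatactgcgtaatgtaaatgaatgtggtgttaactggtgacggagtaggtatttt
H3c3: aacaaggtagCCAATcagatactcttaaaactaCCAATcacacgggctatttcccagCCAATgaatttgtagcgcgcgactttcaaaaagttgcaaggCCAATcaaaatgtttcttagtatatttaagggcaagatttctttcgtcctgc
H4c1: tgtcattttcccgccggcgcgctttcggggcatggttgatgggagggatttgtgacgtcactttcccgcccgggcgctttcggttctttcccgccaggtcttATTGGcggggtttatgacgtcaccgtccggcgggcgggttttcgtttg
H3c14: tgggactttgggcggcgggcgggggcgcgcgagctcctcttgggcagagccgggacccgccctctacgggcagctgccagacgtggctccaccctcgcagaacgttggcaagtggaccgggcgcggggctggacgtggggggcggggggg
In H1f4 the CCAAT match began 52 bases and the TATA match 27 bases before the start. H2ac6 had all 3 motifs, with the octamer at -130, CCAAT at -98 and -69 and TATA at -32. H3c3 had 4 CCAAT matches between -140 and -52, and H4c1 had 1 CCAAT match on the reverse strand at -48. The printed part of H3c14 held none of the 3.

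Over the window from 250 bases before to 50 after the start, 51 of the 62 members with a promoter entry held CCAAT (82.3%), against 39.2% of 17492 protein-coding genes. TATAAA was found in 34 members (54.8%, against 13.3%) and the octamer in 12 (19.4%, against 1.7%). The motifs followed the histone class. CCAAT was in 17 of 17 H2A, 14 of 14 H2B and 10 of 10 H3 promoters, but in 7 of 10 H1 and 3 of 11 H4 promoters. The octamer was in 6 H2A and 6 H2B promoters and in none of the others, and TATAAA was commonest in H4 promoters (8 of 11). Head-to-head genes share much of this window, so their promoters are not independent. A match is a description of the letters and does not show that a factor was bound.

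The share of histone genes with open chromatin was near that of all genes, the share with an acetylation peak was below that of all genes in 7 of 8 lists, and H3K27me3 was at 2 members at most. A gene was counted in a list when a peak overlapped the 1 kb on either side of 1 of its 2 ends by at least 1 bp. ATAC peaks were at 48 members after Sham (71.6%, against 69.4% of all genes), 48 after SNA (71.6% against 71.2%), 46 after Lam (68.7% against 69.5%) and 52 after DCA (77.6% against 70.7%). H3K9ac peaks were at 23 members after Sham (34.3% against 49.1%), 34 after SNA (50.7% against 50.6%), 24 after Lam (35.8% against 49.7%) and 27 after DCA (40.3% against 59.3%). H3K27ac peaks were at 17 members after Sham (25.4% against 40.3%), 25 after SNA (37.3% against 50.9%), 19 after Lam (28.4% against 50.9%) and 14 after DCA (20.9% against 42.7%). H3K27me3 peaks were at 1 member after Sham (28.6% of all genes), 0 after SNA (23.0%), 2 after Lam (33.4%) and 0 after DCA (12.3%). Thus the H3K9ac share was level with all genes only in the SNA list, and the H3K27ac share was below it in all 4 lists.

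**Figure D1:**
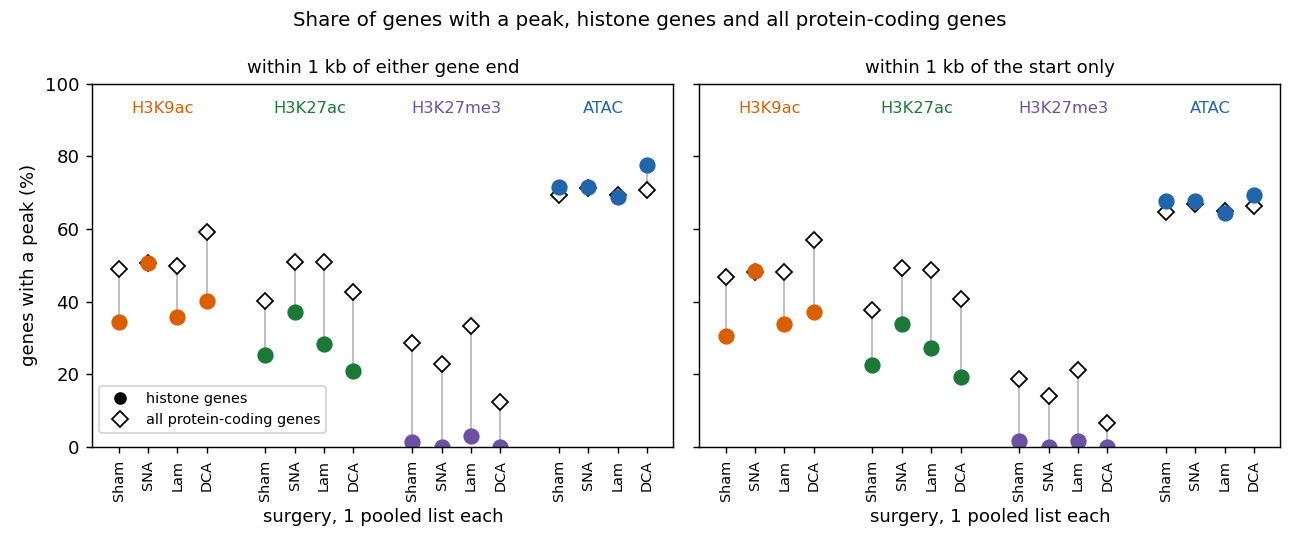
Percent of genes with a peak within 1 kb of either gene end (left) or of the transcription start only (right), on the vertical axis, for the 4 assays and 4 surgeries (1 pooled list each); filled circles are the histone genes and open diamonds all protein-coding genes. The ATAC circles lie at 68.7% to 77.6% beside diamonds at 69.4% to 71.2% in the left panel, and the H3K27me3 circles lie at 3.0% or less.

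Counting only the transcription start, in the 62 members with a known strand, gave the same picture, with ATAC shares of 64.5% to 69.4% (all genes 64.7% to 66.8%) and H3K9ac shares of 30.6% after Sham and 48.4% after SNA (all genes 46.9% and 48.3%). Histone genes are short, and other short genes seldom had such peaks. Among 1519 other genes of at most 1000 bp, 9.5% to 11.7% had an ATAC peak and 2.7% to 3.2% an H3K9ac peak. Within the ATAC lists the member peaks were weaker than those of other genes. The median −log10 p, the authors' own strength of a peak, was 9.9, 13.4, 7.7 and 10.9 at members in Sham, SNA, Lam and DCA, and 15.1, 20.2, 15.3 and 17.2 at all genes with a peak (pooled lists, no test). H3K9ac peaks after DCA had a median −log10 p of 9.5 at members and 17.1 at all genes, whereas after Sham the medians were 6.6 and 6.2.

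Because the genes are crowded, 1 peak often served several of them. The 48 members with an ATAC peak after Sham were covered by 32 peaks, and the 1 kb windows of the 67 genes merged into 37 loci, 21 of which held 51 members. Members of 1 locus are therefore not separate observations.

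**Figure D2:**
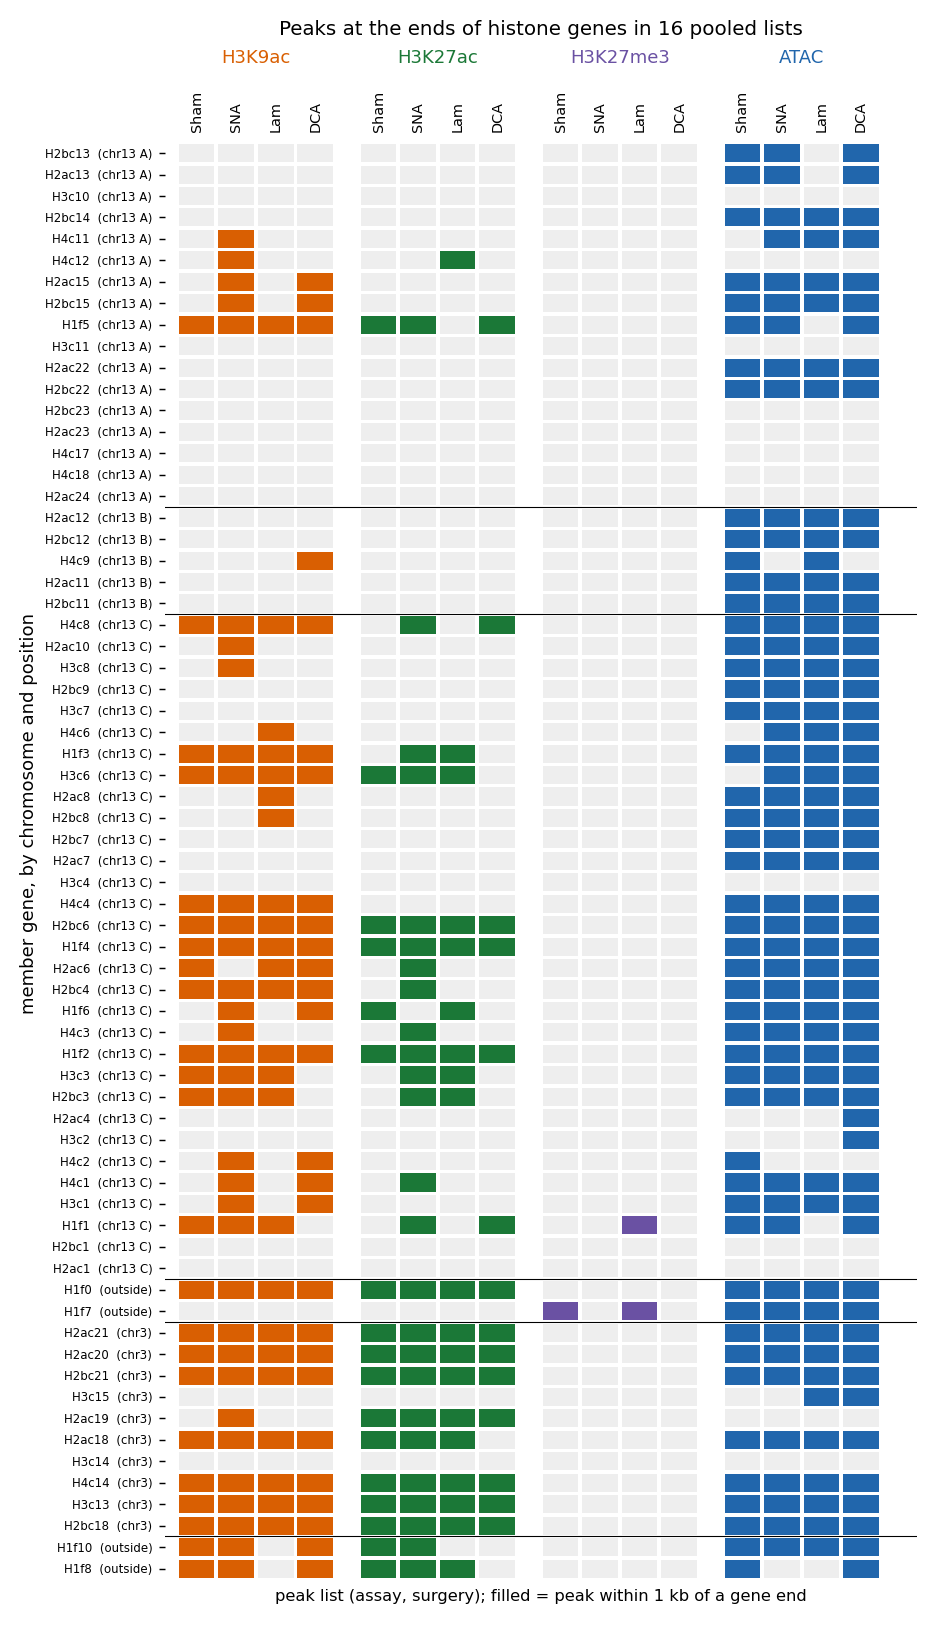
Each row is a histone gene, ordered by chromosome and position, and each column is 1 of the 16 pooled lists; a filled cell means a peak within 1 kb of a gene end. ATAC cells are filled in all 4 lists for 41 genes, and H3K27me3 cells for 2 genes, H1f1 and H1f7. Among the clusters, acetylation cells are densest on chromosome 3, with 7 or 8 of 10 genes filled per list.

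Linker histone genes, whose products bind the DNA between nucleosomes, were the class most often acetylated. H3K9ac was at 8, 9, 6 and 8 of the 10 linker genes in Sham, SNA, Lam and DCA, and H3K27ac at 7, 8, 6 and 5. ATAC peaks were at 10, 9, 7 and 10. H1f4, a main somatic linker gene at chr13:23621777-23622558, had H3K9ac peaks with −log10 p of 8.5, 10.0, 8.4 and 9.3 in the 4 lists in that order. Its H3K27ac peaks had −log10 p of 6.1, 20.7, 14.7 and 8.3, and its ATAC peaks 19.8, 20.8, 21.5 and 28.2. H1f2, another somatic linker gene, had H3K9ac values of 8.5, 12.9, 9.3 and 11.8 and H3K27ac values of 7.2, 16.8, 16 and 10.0. The H3K27ac values of H1f4 belong to different peaks: the Sham peak (chr13:23622754-23623344) lies upstream of its start, and the strongest peaks of the other 3 lists lie at the upstream end of H2bc6 and are also counted there. The H3K9ac values of H1f4 belong to different peaks too. The strongest peaks of Sham and DCA lie at the upstream end of H2bc6, and those of SNA and Lam overlap H1f4. All such values, here and below, are those of the strongest peak at a gene's ends in each list, which need not be the same peak in every list. They also depend on each list's own background, so they are set side by side and no change is read from them. H1f3 had −log10 p of 8.5 for H3K9ac after Sham, above 95.1% of that list, and had H3K27ac peaks after SNA and Lam only.

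The linker genes outside the clusters differed from each other. H1f0, the linker histone of cells that have stopped dividing, had all 3 kinds of peak in all 4 lists. Its H3K9ac peaks had −log10 p of 8.2, 7.7, 12 and 45.9 and its H3K27ac peaks 13.8, 27.9, 53.9 and 9.9. The H3K9ac peak of SNA lay at the downstream end of H1f0, and those of the other lists at its start. The H3K27ac peak of DCA did not overlap those of the other lists. H1f10 had H3K27ac peaks after Sham (−log10 p 10.3) and SNA (5.9) only, and H3K9ac peaks after Sham (3.0), SNA (3.0) and DCA (18.4). The oocyte gene H1f8 had H3K9ac peaks in the same 3 lists, with −log10 p of 3.5, 3.5 and 7.8. Its H3K27ac peaks were after Sham (6.9), SNA (5.1) and Lam (5.3). The spermatid gene H1f7 had ATAC peaks in all 4 lists (6.0, 10.9, 5.7 and 11.4) and no acetylation. H1f6, the testis linker gene of sub-cluster C, had ATAC peaks in all 4 lists at a −log10 p of 3.0 to 7.3. It also had H3K9ac after SNA (4.2) and DCA (7.0) and H3K27ac after Sham (5.6) and Lam (6.5).

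H2A and H2B genes, which encode the dimer added last to a nucleosome, were mostly open and mostly without acetylation. ATAC peaks were at 12, 12, 11 and 13 of 17 H2A genes and at 14, 14, 13 and 14 of 16 H2B genes. H3K9ac was at 4 to 6 H2A and 5 to 6 H2B genes per list, and H3K27ac at 3 to 5 of each. In 9 head-to-head pairs of known strand the starts lay 163 to 280 bp apart (median 179). An ATAC peak overlapped the gap in 7 pairs after Sham, 7 after SNA, 6 after Lam and 7 after DCA. Its summit fell between the starts, or at most 100 bp outside them, in the same numbers of pairs. H3K27ac overlapped no gap in any list. H3K9ac overlapped 1 gap in part, that of H2ac15 and H2bc15, after DCA only. In 5 of the 9 pairs the gap had ATAC in all 4 lists and no acetylation. Gaps between other head-to-head genes were not counted, so whether these numbers are particular to histone pairs was not tested. In 2 pairs, H2bc23/H2ac23 and the testis pair H2bc1/H2ac1, no list had an ATAC peak between the starts.

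The chromosome 3 genes H2ac21, H2ac20 and H2bc21 were an exception among the H2A and H2B genes. They shared peaks of all 3 kinds in all 4 lists, from H3K9ac with −log10 p of 7.5, 11.9, 9.2 and 20.6 at H2ac21 through H3K27ac with 5.8, 19.1, 16 and 8.9 to ATAC with 5.2, 19.7, 6.5 and 14.8. The H3K9ac values belong to different peaks: those of Sham and SNA overlap H2ac21, and those of Lam and DCA overlap H2bc21. H2bc6 also had all 3 in all 4 lists, but its H3K27ac peak after Sham (chr13:23584401-23585314) lay at the downstream end of the gene. With windows of 500 bp H2bc6 had a peak in 11 of the 12 H3K9ac, H3K27ac and ATAC lists. Its gene model is 37455 bp long and its upstream end lies 653 bp from H1f4, and the same ATAC peak covered both genes after Sham and DCA. H2ac6 and H2bc4 shared 1 of the strongest ATAC peaks of the Sham list among members (−log10 p 19.8) and had 1 there of 18.4, 16.8 and 14.4 after SNA, Lam and DCA.

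H3 genes encode the histone that carries the 3 modifications measured here, and after Sham, SNA and Lam they were the class with the lowest share of ATAC peaks. ATAC peaks were at 5, 6, 7 and 8 of the 12 H3 genes, H3K9ac at 3, 5, 3 and 3, and H3K27ac at 2, 3, 3 and 1. H3c13 on chromosome 3 was the H3 gene with all 3 in all 4 lists, and shared its ATAC peaks with H2bc18. H3c6 had H3K9ac in all 4 lists and H3K27ac in Sham, SNA and Lam at −log10 p of 9.5, 13.9 and 10.8.

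H4 genes, whose product pairs with H3, had ATAC peaks at 7, 7, 8 and 7 of 12. H3K9ac was at 3 H4 genes after Sham, 8 after SNA, 4 after Lam and 6 after DCA, and H3K27ac at 1, 4, 2 and 2. H4c14 on chromosome 3 had the strongest member peak of both acetylation marks after Sham. Its H3K9ac peaks had −log10 p of 9.4, 16, 11.8 and 29.9, its H3K27ac peaks 18.1, 22.9, 21.1 and 15.6 and its ATAC peaks 16.3, 30.5, 13.4 and 16.3. The strongest H3K9ac peak at H4c14 stood above at least 95.7% of the peaks of each list, but it was not the same peak throughout. Those of Sham and SNA lie beside the gene, and those of Lam and DCA overlap it. H4c1 and H3c1 shared an ATAC peak of −log10 p 19.5, 33.9, 23.2 and 21.5. At these H4 and H3 genes H3K9ac was after SNA (4.2) and DCA (8.1) only.

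Acetylation also differed by place in the genome. On chromosome 3, H3K27ac was at 8, 8, 8 and 7 of 10 genes and H3K9ac at 7, 8, 7 and 7. In sub-cluster C H3K9ac was at 12, 18, 15 and 13 of 31 genes and H3K27ac at 5, 13, 8 and 5. In sub-cluster A H3K27ac was at 1 of 17 genes in each list and H3K9ac at 1, 5, 1 and 3. In sub-cluster B H3K27ac was at none of 5 genes, H3K9ac at 1 gene after DCA only, and ATAC at 5, 4, 5 and 4. ATAC counts were 7 or 8 of 10 genes on chromosome 3, 24 to 27 of 31 in C and 6 to 9 of 17 in A.

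In the 12 lists of narrow peaks (H3K9ac, H3K27ac and ATAC), 10 members had a peak in every list (14.9%, against 27.5% of all genes). These were H1f0, H1f2, H1f4, H2bc6, H2ac20, H2ac21, H2bc21, H4c14, H3c13 and H2bc18, of which 6 lie on chromosome 3. A further 12 members had ATAC in all 4 lists and no acetylation in any of 8 (17.9%, against 6.4% of all genes). They were 6 H2B genes (H2bc7, H2bc9, H2bc11, H2bc12, H2bc14 and H2bc22), 4 H2A genes (H2ac7, H2ac11, H2ac12 and H2ac22), H3c7 and H1f7, a set picked out after its values were seen. With windows of 5 kb this count was 7, and the share of all genes at that window was not counted. The pairs H2ac7/H2bc7, H2ac11/H2bc11, H2ac12/H2bc12, H2ac22/H2bc22 and H2bc9/H3c7 each share their ATAC peaks. The 12 are therefore not separate observations. The ATAC peak of the H2ac12/H2bc12 pair had −log10 p of 11.4, 19, 14 and 9.5 and stood above 92.8% of the peaks of the Sham list. Within 1 surgery, ATAC with neither acetylation mark was found at 25, 17, 23 and 26 members in Sham, SNA, Lam and DCA (37.3%, 25.4%, 34.3% and 38.8%, against 18.5%, 18.3%, 16.7% and 13.6% of all genes).

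No narrow peak in any list was found for 11 members (16.4%, against 20.2% of all genes): 4 H3, 3 H2A, 2 H2B and 2 H4 genes, from H3c14 on chromosome 3 to H2ac1 at the far end of sub-cluster C. ChIP reads were 50 bases long, and near-identical promoters can leave such reads without a unique place. Of these 11 promoters 6 shared at least 50% of their 50-base stretches with another promoter, against 3 of the 51 members with a narrow peak. H4c17 and H4c18 shared 94.0% with each other, H2bc23 shared 100.0%, H2ac23 86.9%, H3c14 74.1% (with H3c15) and H2ac24 73.3%. The remaining 5 (H3c4, H3c10, H3c11, H2ac1 and H2bc1) shared none. The part of shared sequence in the missing peaks was not tested. None was shared in the 11 members that had ATAC in all 4 lists, no acetylation and a promoter entry. Just inside the 1 kb limit, the ATAC Sham peak nearest to H2ac18 was 995 bp from a gene end, and just outside it that of H3c10 was at 1128 bp and that of H4c11 at 1178 bp.

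ATAC summits sat just upstream of the start. The median summit was at -50 bp after Sham, -47.5 after SNA, -47 after Lam and -67 after DCA, against 17 to 25 bp downstream for all genes. The summit lay within 250 bp of the start in 28 of 42 members after Sham, 30 of 42 after SNA, 27 of 40 after Lam and 32 of 43 after DCA, shares near those of all genes (66.8%, 66.5%, 66.3% and 66.3%). The member ATAC peaks were narrow, with median widths of 470 to 518 bp against 931 to 977 bp at all genes. Acetylation summits were spread over both sides of the start. Their medians were 138, 412.5, -125 and 180 bp for H3K9ac and -440.5, -383, -241 and 236 bp for H3K27ac, against 247 to 277 bp and 198 to 232 bp at all genes. The H3K9ac summit was within 250 bp of the start in 6 of 19, 3 of 30, 8 of 21 and 5 of 23 members (29.0%, 27.3%, 29.4% and 31.1% of all genes). The H3K27ac summit was so in 4 of 14, 3 of 21, 5 of 17 and 2 of 12 (26.3%, 30.2%, 29.4% and 28.6%).

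**Figure D3:**
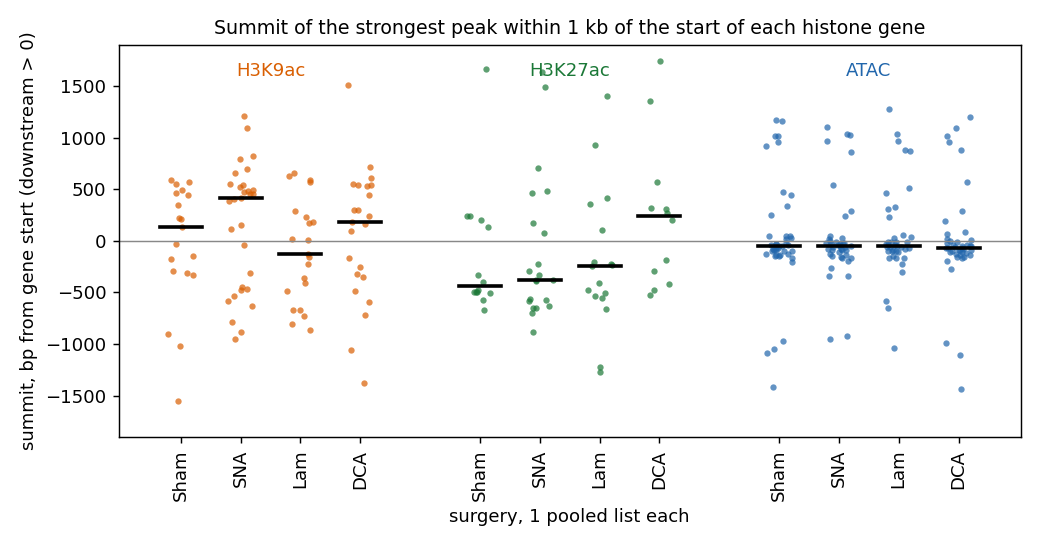
Each point is the summit of the strongest peak within 1 kb of a histone gene's transcription start, as bp from the start (positive is downstream) on the vertical axis, by assay and surgery; black bars are medians. ATAC points gather at the start, with medians from -67 to -47 bp, and the H3K9ac and H3K27ac points spread to either side of it.

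The chromosome 13 cluster was measured as sub-clusters A, B and C with 10 kb on either side, 590.2 kb in all, of which the windows at member gene ends took 107.4 kb. It held 23, 36, 25 and 31 H3K9ac peaks in Sham, SNA, Lam and DCA, or 3.9, 6.1, 4.24 and 5.25 per 100 kb, against 1.91, 2.84, 1.93 and 3.41 per 100 kb over the whole lists. Of these, 17, 26, 17 and 22 were at a member's end. H3K27ac had 11, 27, 14 and 14 peaks there, of which 8, 20, 10 and 9 were at a member's end, or 1.86, 4.57, 2.37 and 2.37 per 100 kb against 1.67, 2.88, 2.56 and 1.77 over the lists. ATAC had 42, 40, 35 and 38, of which 26, 29, 25 and 29 were at a member's end, or 7.12, 6.78, 5.93 and 6.44 per 100 kb against 5.64, 6.42, 5.81 and 6.04. In the 1467.4 kb between B and C, with 41 other genes, H3K9ac had 4, 12, 9 and 11 peaks.

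H3K27me3 peaks of the cluster lay away from the ends of histone genes, with 1 exception at H1f1 in the Lam list. The cluster held 29, 38, 38 and 22 H3K27me3 peaks in Sham, SNA, Lam and DCA, of which 0, 0, 1 and 0 were at a member's end. Their density of 4.91, 6.44, 6.44 and 3.73 per 100 kb was close to that of the whole lists (4.52, 5.21, 5.66 and 3.42). Most of those in sub-cluster C lay past H1f1, where the testis pair H2bc1/H2ac1 are the only histone genes, counting the flank: 17 of 23 after Sham, 25 of 33 after SNA, 23 of 34 after Lam and 11 of 18 after DCA. Genes of that stretch include Trim38 and Slc17a2, which had H3K27me3 at an end in all 4 lists and no acetylation. Hfe, the iron-uptake regulator among the histone genes of C, had both acetylation marks and ATAC in all 4 lists and no H3K27me3. The 2 members with H3K27me3 in any list were H1f1 (Lam, −log10 p 1.0) and H1f7 (Sham and Lam, 0.8 each), 3.0% of members against 49.1% of all genes. These peaks were weak, and none at a member had a q of at most 0.05, but at that q also at most 0.361% of all genes had one. With windows of 5 kb, 21 members had an H3K27me3 peak in at least 1 list.

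**Figure D4:**
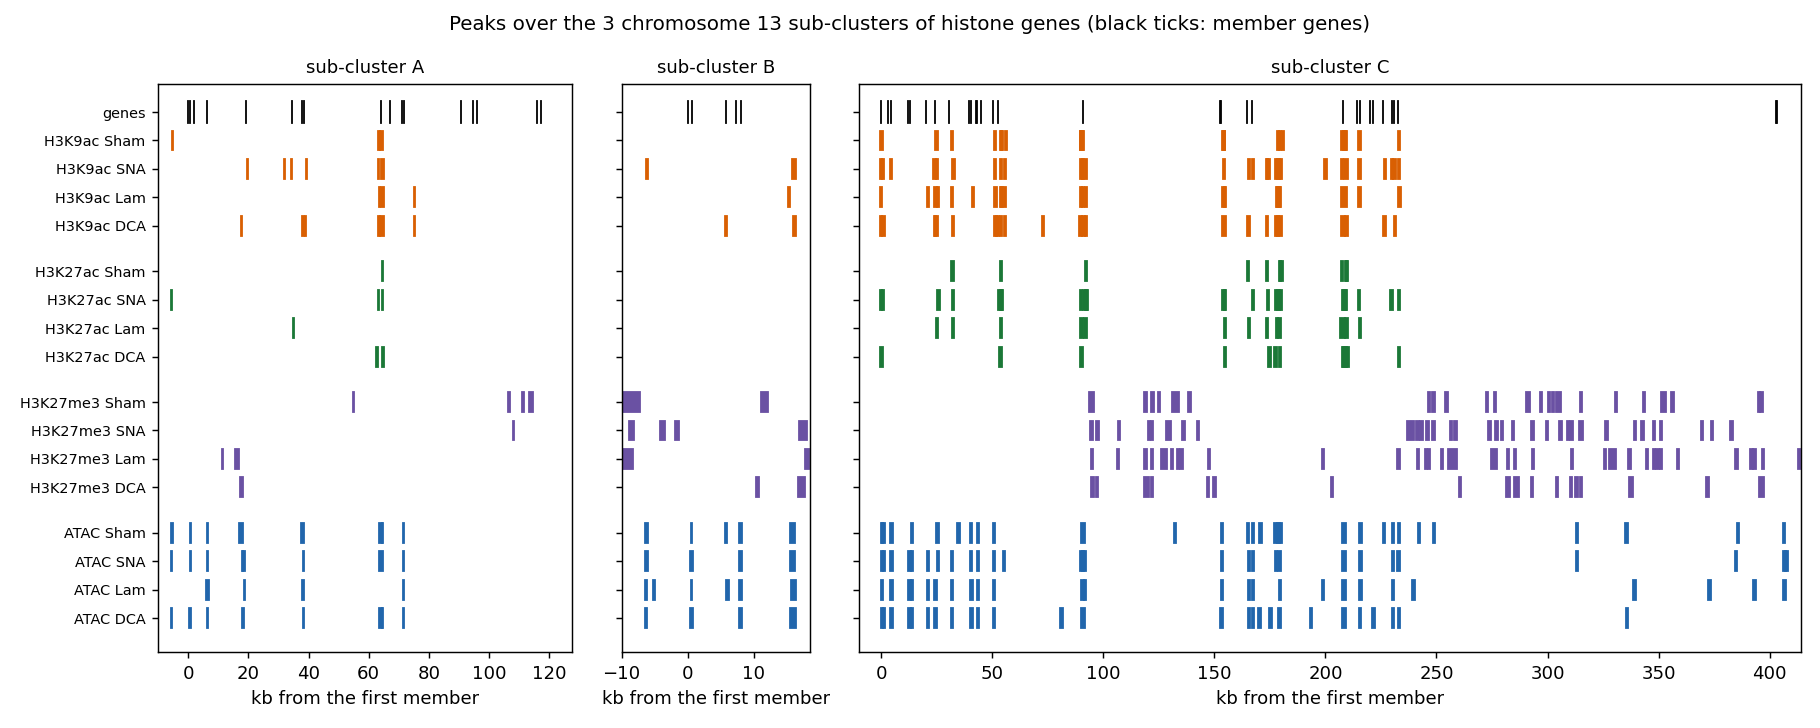
Peaks of the 16 lists (rows, coloured by assay) over sub-clusters A, B and C of chromosome 13, by distance in kb from the first histone gene of each; black ticks are the histone genes. Of the ATAC peaks 25 to 29 per list, and of the H3K9ac peaks 17 to 26, lie within 1 kb of the end of a histone gene, and of the 22 to 38 H3K27me3 peaks per list only 1, at H1f1 in the Lam list, lies there.

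Each axotomy was then set against its own control surgery, and Lam against Sham gave the difference between surgeries without axotomy. A gained peak was present at a gene in the first list and absent from the second, and a lost peak the reverse. SNA and Lam were both set against the same Sham list, and DCA and Sham against the same Lam list, so these comparisons share lists.

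After sciatic axotomy more histone genes gained an H3K9ac peak than lost one. In SNA against Sham 12 members gained an H3K9ac peak (17.9%, against 5.44% of all genes) at 8 loci, and 1 lost it, H2ac6 (1.5% against 3.86%). The 5 gained with the highest −log10 p after SNA were H2ac15 and H2bc15 (5.7, a shared peak), H4c11 (4.9), H2ac19 (4.9) and H2ac10 (4.2), the last tied with H3c8, which shares its peak, H1f6, H4c1 and H3c1. Of the 12, 5 were H4 genes, among them H4c1, H4c2, H4c3 and H4c12 beside H4c11. All these peaks were modest, from 2.4 at H4c12 to 5.7. The SNA list was also larger than the Sham list, and with the same number of the strongest peaks taken from each the net gain was 6 members instead of 11. H3K27ac was gained at 9 members (13.4% against 13.5%): H1f1, H1f3, H2ac6, H2bc3, H2bc4, H3c3, H4c1, H4c3 and H4c8. It was lost at 1, H1f6 (2.83% of all genes). The share of members that gained H3K27ac was thus near that of all genes. H1f3, at −log10 p 11.8, and H3c3 with H2bc3, at 10.1, had the strongest of the gained H3K27ac peaks. ATAC was gained at H4c11, H3c6 and H4c6 (4.5% against 5.51%) and lost at H4c9, H4c2 and H1f8 (4.5% against 3.75%), and H3K27me3 was gained at none (9.0% of all genes) and lost at H1f7 (14.6%).

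After dorsal column axotomy the share of histone genes that lost H3K9ac was above that of all genes, while the shares that gained H3K9ac or lost H3K27ac were near it. In DCA against Lam 9 members gained H3K9ac (13.4% against 10.2%), and 6 lost it (9.0% against 0.594%). The gained genes were H1f6, H1f8, H1f10, H2ac15, H2bc15, H3c1, H4c1, H4c2 and H4c9. The lost ones were H4c6, the pair H2ac8 and H2bc8, H2bc3 with H3c3, and H1f1, at 4 loci, with −log10 p of 3.4 at H1f1 and 4.7 at the other 5 genes in the Lam list. These peaks stood above 11.5% of the Lam list at H1f1 and 42.5% at the other 5 genes. H4c6, H2ac8 and H2bc8 had H3K9ac in the Lam list alone, so the Sham list lacked it too. H2bc3, H3c3 and H1f1 had it in every list but DCA. The DCA list was the larger, with 89647 peaks against 50667 after Lam. H3K27ac was gained at H1f1, H1f5 and H4c8 (4.5% against 2.4%) and lost at 8 members (11.9% against 10.6%): H1f3, H1f6, H1f8, H2ac18, H2bc3, H3c3, H3c6 and H4c12. The strongest lost H3K27ac peak was that of H2ac18, with −log10 p 12.2 after Lam. With equal numbers of the strongest peaks from both lists the net difference in H3K27ac was 1 member instead of -5. ATAC was gained at 7 members (10.4% against 4.96%), H1f1, H1f5, H1f8, H2ac4, H2ac13, H2bc13 and H3c2, and lost at H4c9 (1.5% against 3.82%), a net of 6 that was 1 with windows of 5 kb and 3 with the start only. H3K27me3 was gained at none (3.48% of all genes) and lost at H1f1 and H1f7 (3.0% against 24.6%).

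The control surgeries also differed from each other. In Lam against Sham H3K9ac was gained at H4c6, H2ac8 and H2bc8 (4.5% against 5.35%) and lost at H1f8 and H1f10 (3.0% against 4.7%). H3K27ac was gained at H1f3, H2bc3, H3c3 and H4c12 (6.0% against 13%) and lost at H1f5 and H1f10 (3.0% against 2.38%), a net of 2 that became -5 with equal list sizes. ATAC was gained at H3c6, H3c15, H4c6 and H4c11 (6.0% against 4.76%) and lost at H1f1, H1f5, H1f8, H2ac13, H2bc13 and H4c2 (9.0% against 4.66%), and H3K27me3 was gained at H1f1 (14.7% of all genes) and lost at none (9.89%). H1f1, H1f5, H1f8, H2ac13 and H2bc13 were thus absent from the Lam ATAC list and present in both the Sham and the DCA list, and H3c6, H4c6 and H4c11 were absent from the Sham ATAC list and present in the other 3.

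**Figure D5:**
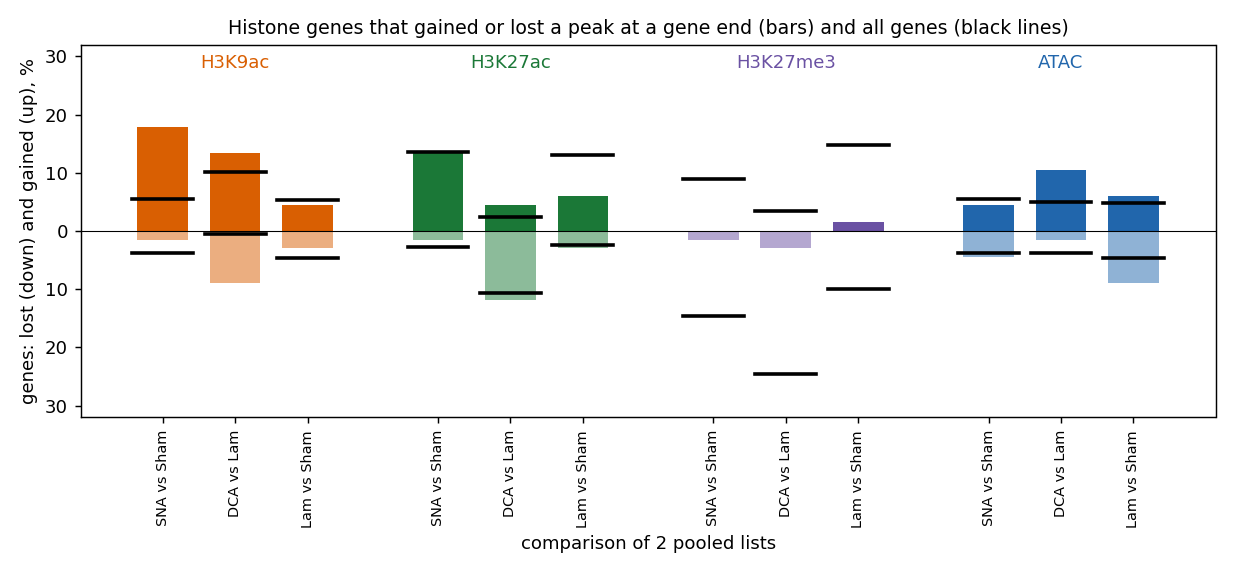
Percent of histone genes (bars) and of all protein-coding genes (black lines) that gained (up) or lost (down) a peak at a gene end, by assay and comparison of 2 pooled lists. The H3K9ac bar for SNA against Sham reaches 17.9% with the line at 5.44%, and the H3K9ac losses in DCA against Lam reach 9.0% with the line at 0.594%.

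Over the whole chromosome 13 cluster, the log2 ratio of H3K9ac peak numbers was 0.65 with SNA set against Sham (0.57 for the whole lists), 0.31 with DCA set against Lam (0.82) and 0.12 with Lam set against Sham (0.01). The same 3 ratios were 1.3 (0.79), 0.00 (-0.53) and 0.35 (0.62) in the H3K27ac lists. They were 0.39 (0.20), -0.79 (-0.78) and 0.39 (0.33) in the H3K27me3 lists and -0.07 (0.19), 0.12 (0.06) and -0.26 (0.04) in the ATAC lists. The H3K27ac peaks of the cluster after SNA thus outnumbered those after Sham by more than the list did, 27 against 11, and the H3K27me3 and H3K9ac SNA ratios were near those of their lists. With equal list sizes the H3K27ac ratio between SNA and Sham was 0.63 instead of 1.3. The H3K9ac ratio between DCA and Lam was then -0.12, the H3K27ac ratio between Lam and Sham -0.29 and the H3K27me3 ratio between SNA and Sham -0.05.

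The genes that serve histone supply were given by lists chosen for their roles. Of all genes, 61.9% had ATAC in all 4 lists. The share of all genes with H3K9ac, or with H3K27ac, in all 4 lists was not counted. The per-list acetylation shares of all genes given above are a different and higher measure. They stand beside the counts by surgery of the S phase genes below, and not beside counts over all 4 lists. Of 9 regulators of histone gene transcription, all had ATAC in all 4 lists, 6 had H3K9ac in all 4 and 2 H3K27ac in all 4. Npat, the coordinator of histone transcription, and Cdk2, its kinase, had all 3 in all 4 lists, while Ccne2, a cyclin partner of Cdk2, had H3K9ac in 1 list and H3K27ac in none. Of 9 genes for histone mRNA processing, 9 had ATAC in all 4 lists and 5 had H3K9ac in all 4, among them Slbp, while Cstf2 had H3K27ac in none. Of 9 histone chaperones, 8 had ATAC in all 4 lists, and Nasp, a carrier of H3-H4, had ATAC in all 4 without acetylation in any. Of 11 replication-independent histone genes, a list that includes the members H1f0 and H1f10, 10 had ATAC in all 4 lists and 7 H3K9ac in all 4. The 13 S phase and cell cycle genes all had ATAC in all 4 lists, 5 had H3K9ac in all 4 and 3 H3K27ac in all 4. By surgery, H3K9ac was at 9, 10, 7 and 12 of these 13 genes in Sham, SNA, Lam and DCA and H3K27ac at 5, 10, 7 and 8. Of the genes outside the rule, H2aw and H4f16 had all 3 narrow kinds of peak in all 4 lists.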

How the data were processed

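H3K9ac, H3K27ac and H3K27me3 ChIP-seq and ATAC-seq peak lists of DRG were used, 1 per assay and surgery, 16 for 60 samples. Replicates were pooled by the authors, per the labels, and reads were placed on mm10, per the submitters' processing notes. The aligner, the peak caller and its settings are not given in the sources used here. Each deposited line holds a score, the peak's fold (a ratio to background), −log10 p and −log10 q, and, in narrow lists, the summit as an offset, all as the authors made them. Depth is unknown, and no interval is given.

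Genes came from a RefSeq table (GRCm38.p6, 21887 protein-coding genes), which has no strand and no exons. Strand, start and sequence came from the RefSeq promoter table, which matched 62 of 67 members. Several ATAC lines of 1 interval were collapsed to the strongest. A gene had a peak when at least 1 bp lay within 1 kb of either gene end. Members of chromosome 13 were split where neighbours lay over 200 kb apart. Shared stretches were exact 50-base matches between promoter windows of different genes, on either strand.

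No tests were made, since each condition is 1 list. The share over all genes stands beside the counts over all members. Members and lists were chosen with earlier results of these data known. Genes named were those with the 3 strongest Sham peaks per assay, all that gained or lost a peak where at most 10 did and otherwise the 5 strongest, and all with a peak in every narrow list; others are named in groups picked after their values were seen. Alternatives were windows of 500 bp and 5 kb, a q of at most 0.05, equal list sizes, an overlap of at least 50%, loci instead of genes, the start only and no flank. The counting was tested on simulated data. Python 3.11.15, pandas 2.3.3, numpy 2.4.6 and scipy 1.17.1 were used.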

Additional observations from a re-analysis of the deposited data

Results flagged for a closer look

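For H3K27ac, the net number of histone genes with a peak was 8 higher in SNA than in Sham, while DCA minus Lam was -5. With equal list sizes the latter was 1. All genes moved the same ways, with H3K27ac gained at 13.5% and lost at 2.83% in SNA against Sham, and gained at 2.4% and lost at 10.6% in DCA against Lam. Over the chromosome 13 cluster the log2 ratio of H3K27me3 peak numbers was 0.39 between SNA and Sham but -0.79 between DCA and Lam. The whole lists gave 0.20 and -0.78, and equal list sizes gave -0.05 and -0.13. The ATAC ratios were -0.07 and 0.12 in the same order, against 0.19 and 0.06 for the whole lists. These differences between the axotomies were not tested, since each value comes from 2 pooled lists.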

How the results depend on the processing

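Each value below stands for 1 alternative, and the cause of a change was not tested. Among net numbers of histone genes with a peak, H3K9ac in SNA minus Sham was 11 and became 6 with equal list sizes and 7 over loci. DCA minus Lam was 3 and became 5 (500 bp), 7 (5 kb), 5 (q of at most 0.05), 1 (50% overlap) and 1 (the 63 cluster members only, an alternative chosen after seeing the data). Lam minus Sham was 1 and became -1 (500 bp), 5 (5 kb), 3 (q), 0 (loci), 2 (start only) and 3 (cluster members). For H3K27ac, SNA minus Sham was 8 and became 5 over loci. DCA minus Lam was -5 and became -3 (5 kb) and, with equal list sizes, 1. Lam minus Sham was 2 and became 5 (5 kb), 1 (loci) and, with equal sizes, -5. For H3K27me3, SNA minus Sham was -1 and became 0 with 5 kb, the q limit or cluster members only. DCA minus Lam was -2 and became 0 (q), -1 (start only) and -1 (cluster members). Lam minus Sham was 1 and became 4 (5 kb), 0 (q) and 0 (start only). For ATAC, SNA minus Sham was 0 and became 2 (500 bp), -1 (q), -1 (equal sizes), 1 (loci) and 1 (cluster members). DCA minus Lam was 6 and became 1 (5 kb) and 3 (start only). Lam minus Sham was -2 and became 0 (500 bp), -1 (50% overlap), 0 (loci) and -1 (cluster members).

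Over the chromosome 13 cluster, equal list sizes turned the log2 ratio of H3K9ac for DCA over Lam to -0.12, of H3K27ac for Lam over Sham to -0.29 and of H3K27me3 for SNA over Sham to -0.05. The q limit turned ATAC for SNA over Sham to 0.04 and left no H3K27me3 ratio. Leaving out the flank turned none of the 12 ratios.

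No paired analysis was possible because each list pools its replicates, and for the same reason leaving out a replicate was not run. Peak presence depends on depth, which is unknown, on the size of each list and on how reads from near-identical genes were placed.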
